A study of Mus musculus with 16 samples.

Results

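The anoctamin family was measured in mouse cortex on embryonic day (E)15.5, in animals lacking *Knl1* or both *Knl1* and *Trp53*. All 10 genes named *Ano1* to *Ano10* were taken, and each was among the 51912 genes listed in the count files. The family was chosen by the values of *Ano3*, which had the smallest p of all genes when cKO and ctrl cortex were compared. The cKO versus ctrl values of *Ano3* are therefore a description of what chose it, and no test is drawn from them. Its values in cKO versus dKO rest on the same cKO mice.

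Anoctamins, also called TMEM16 proteins, are membrane proteins that respond to calcium. Some are chloride channels and others are scramblases, which let phospholipids pass between the leaflets of a membrane, and scrambling exposes phosphatidylserine on the surface of dying cells. ANO3 is a neuronal member known for its effect on a sodium-activated potassium channel and for its link to inherited dystonia. KNL1 is a kinetochore scaffold needed for chromosome segregation, and p53, the product of *Trp53*, drives transcription after DNA damage or faulty mitosis.

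UMI RNA-seq counts came from the micro-dissected cerebral cortex of 15 mice in 16 libraries, made from rRNA-depleted total RNA. The 7 ctrl mice were 5 labelled Casc5 wild type (2, 6, S1, S3 and T3) and 2 labelled Casc5 heterozygous (T4 and T5), Casc5 being an older name of *Knl1*. The 4 cKO mice (5, 7, S2 and F3) were labelled hGFAP-Cre Casc5 conditional KO, and the 4 dKO mice (T2, T8, F1 and F7) hGFAP-Cre Casc5/Trp53 double conditional KO. The mice were of both sexes and of mixed background. The Cre is active in cortical NPCs, so cells of other origin in the dissected cortex keep the floxed genes. Whether the ctrl mice carried the Cre is not given in the labels. Mouse S2 had 2 libraries, whose counts were added together because they differed little more than by sampling (chi-square per degree of freedom 1.14).

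Library totals ran from 399832 to 3266227 counts for ctrl mice, from 4178461 to 8800987 for cKO mice and from 552186 to 5396803 for dKO mice, so each cKO mouse was deeper than each ctrl mouse. Mice fell into 4 litters and 3 batches. Litters 1 and 2 held ctrl and cKO mice, litter 3 held ctrl and dKO mice, and litter 4 held the cKO mouse F3 and the dKO mice F1 and F7. All dKO mice were in batch 3, where F3 was the only cKO mouse. Levels are given as CPM, the count scaled to the library total and adjusted by TMM. *Knl1* was between 33.4 and 80.4 CPM and *Trp53* between 15.6 and 47.0 CPM over all mice. Their levels overlapped between the groups, and counts over a whole gene need not fall when part of it is deleted. The counts ran over whole genes, introns included, and kept the strand. Of 232 protein-coding genes that lie in an intron of another gene on the same strand, 231 (99.6%) had no count, against 28.2% of 542 on the opposite strand.

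*Ano3* (ENSMUSG00000074968) lies on the minus strand of GRCm38 at chr2:110655201-110950923 and spans 296 kb, of which exons make up 2.44%. Another protein-coding gene, *Muc15*, lies inside it on the opposite strand and had no count in any mouse. RefSeq gives *Ano3* 2 start sites. The outer one falls within the annotated first exon of the longer transcripts, and the inner one is at base 110840059 of chromosome 2. The 250 bases before the inner start (chr2:110840060-110840309, minus strand, RefSeq on GRCm38.p6) are shown because *Ano3* is the member that differed most between the groups. They are set beside the 250 bases before the start of *Ano6* (chr15:95790593-95790842, plus strand), a phospholipid scramblase of the family. In the *Ano6* bases a match to the p53 half-site decamer is in capitals.
Ano3 inner start: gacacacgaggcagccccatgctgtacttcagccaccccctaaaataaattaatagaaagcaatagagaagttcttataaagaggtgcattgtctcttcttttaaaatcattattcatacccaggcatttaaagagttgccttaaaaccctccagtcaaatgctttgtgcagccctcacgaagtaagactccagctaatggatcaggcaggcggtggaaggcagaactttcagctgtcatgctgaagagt
Ano6 start: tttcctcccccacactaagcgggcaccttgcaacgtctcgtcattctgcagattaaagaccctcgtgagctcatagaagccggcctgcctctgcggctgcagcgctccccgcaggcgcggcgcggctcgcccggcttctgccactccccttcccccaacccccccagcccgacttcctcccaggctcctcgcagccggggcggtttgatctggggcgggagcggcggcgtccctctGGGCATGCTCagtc
The decamer was searched in windows of 300 bases around start sites, from 250 before to 50 after, and it reads the same on both strands. It was in neither of the 2 *Ano3* windows. It was in 2 of the 11 windows that RefSeq gave for 8 anoctamins, 1 each of *Ano2* and *Ano6*, against 8.36% of all 32851 windows. The full element, a pair of decamers at most 13 bases apart, was in none of the 11 and in 0.0731% of all. A match is a description of letters and not of binding.

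*Ano3* was low in ctrl cortex, higher in every cKO mouse, with a fold of 4.18 from the edgeR fit, and just above most ctrl mice in dKO. The ctrl mice T3, T4, T5, S1, S3, 2 and 6 were at 14.0, 11.3, 33.3, 11.9, 11.8, 11.8 and 14.2 CPM. The cKO mice 5, 7, S2 and F3 were at 66.8, 65.5, 57.1 and 46.8 CPM. The dKO mice T2, T8, F1 and F7 were at 19.9, 18.5, 19.6 and 26.0 CPM. Every cKO mouse lay above every mouse of the other groups, while the dKO mice lay above 6 of the 7 ctrl mice and below T5. The means were 15.5 ± 7.96 CPM in ctrl mice (SD, n = 7), 59.1 ± 9.23 CPM in cKO mice (SD, n = 4) and 21.0 ± 3.39 CPM in dKO mice (SD, n = 4). Of the 10855 genes with a mean of at least 5 CPM, 0.912% had every cKO mouse above every ctrl mouse, and 2.91% had every cKO mouse above every dKO mouse.

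These levels rest on 6 to 45 counts per ctrl mouse, 206 to 502 per cKO mouse and 12 to 134 per dKO mouse. The ctrl mouse T5 stood apart from the other ctrl mice. Its level came from 15 counts, with a 95% Poisson interval of 18.7 to 55.0 CPM, which covers counting error only. The other heterozygous ctrl mouse, T4, was at 11.3 CPM from 12 counts. The interval of T5 held the level of the cKO mouse F3 and those of the dKO mice T2, F1 and F7.

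**Figure D1:**
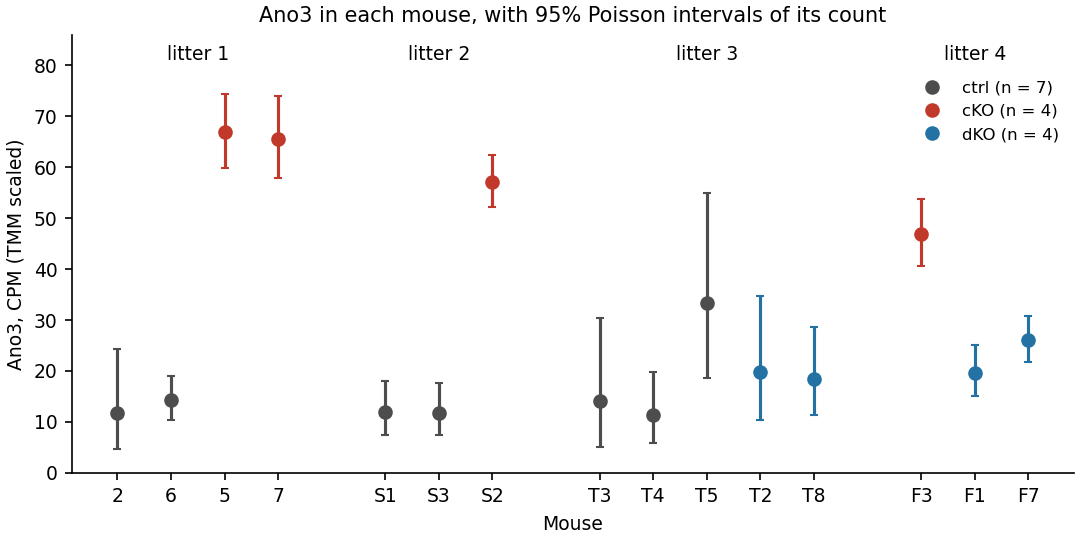
*Ano3* in CPM (y axis, TMM scaled) in each of the 15 mice (x axis, ordered by litter), with points coloured by group and bars for the 95% Poisson interval of the count. The 4 cKO mice sit between 46.8 and 66.8 CPM, and the 4 dKO mice between 18.5 and 26.0 CPM, above 6 of the 7 ctrl mice.

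The difference between cKO and ctrl was seen within litters. In litter 1 the mean of the 2 cKO mice was 5.09 times that of the 2 ctrl mice. In litter 2 the cKO mouse S2 was at 4.81 times the mean of its 2 ctrl littermates. The log2 fold change of *Ano3* in cKO versus ctrl was 2.06 (standard error 0.20), and over the alternative settings it was between 1.97 and 2.28.

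*Ano3* was lower in the 4 dKO mice than in the 4 cKO mice. The log2 fold change in cKO versus dKO was 1.45 (standard error 0.19, 95% interval 1.07 to 1.83, edgeR FDR = 1.5e-09), and 0.0520% of the 51912 genes were at an FDR below 0.05 in this comparison. The cKO mice are those whose high values chose *Ano3*, so this FDR is not independent evidence of a difference. Within litter 4, the only litter with both groups, F3 was at 46.8 CPM (Poisson interval 40.6 to 53.7) against 19.6 CPM in F1 and 26.0 CPM in F7 (21.8 to 30.8). F3 was at 2.05 times the mean of both. The intervals cover counting error only, and a single cKO mouse gives no spread between mice to test this ratio against. F7 had more counts in all than 3 of the 4 cKO mice, and its *Ano3* level was below that of each. The dKO mice T2, T8 and F1 had fewer counts in all than any cKO mouse. The part of depth in the *Ano3* level was not tested. The call was lost with batch as a covariate (1.11, edgeR FDR = 0.0935) and in batch 3 alone (1.12, edgeR FDR = 1). It was kept with litter as a covariate (1.03, edgeR FDR = 0.0246).

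Whether *Ano3* in dKO differed from ctrl was not settled by these mice. The log2 fold change in dKO versus ctrl was 0.63 (standard error 0.24, 95% interval 0.15 to 1.10), with an unadjusted p of 0.00968 and an edgeR FDR of 1. In this comparison 0.0501% of the 51912 genes were at an FDR below 0.05. The value was 0.79 without T5 (edgeR FDR = 0.454), 0.26 in batch 3 alone and 0.11 with litter as a covariate, and it did not pass the threshold in any setting. In litter 3 the dKO mean was 0.98 times the ctrl mean (19.2 against 19.5 CPM). The dKO mice T2 and T8 lay above the ctrl mice T3 and T4 and below T5.

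One list of markers of other cells was also highest in the cKO mice. The summed level of 12 interneuron markers was 1143 to 1528 CPM in ctrl, 1711 to 2181 CPM in cKO and 1283 to 1543 CPM in dKO, so the cKO mice lay above both other groups. *Nxph1* held the most of this sum, with 611 ± 90.4 CPM in the ctrl mice (SD, n = 7), 973 ± 164 CPM in the cKO mice (SD, n = 4) and 718 ± 88.6 CPM in the dKO mice (SD, n = 4). By edgeR's likelihood ratio test 2 of the 12 markers were called in cKO versus ctrl, where 0.160% of all genes were. In cKO versus dKO 0 were called, against 0.0520% of all. An unadjusted p below 0.05 by that test was found for 8 and 5 of the 12, against 4.70% and 4.16% of all genes. The summed level of 12 striatal neuron markers was 275 to 762, 676 to 1086 and 714 to 785 CPM, and the groups overlapped. In cKO versus ctrl 1 of the 12 was called, against 0.160% of all genes. By the same test 5 of the 12 were there at an unadjusted p below 0.05, and 0 in cKO versus dKO. Of all genes 4.70% and 4.16% were. The median log2 fold change in cKO versus ctrl was 0.46 for the striatal and 0.50 for the interneuron markers of at least 5 CPM. It was 0.04 for all genes of at least 5 CPM. No marker of either list was at 0 in every mouse of a group. Their part in the *Ano3* level was not tested. In bulk tissue, more cells of a type and more RNA per cell cannot be told apart.

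The remaining marker lists place the samples. The sum of 8 cortical excitatory neuron markers was between 1628 and 2301 CPM in every mouse. Of the other lists, those for radial glia, microglia, endothelial and mural cells held no gene at an edgeR FDR below 0.05 in any comparison. Of all genes 0.160%, 0.0501% and 0.0520% were, so this does not set these lists apart. In cKO versus ctrl 3 of 8, 2 of 9, 0 of 8 and 1 of 7 of their markers were at an unadjusted p below 0.05. Of all genes 4.70% were, by edgeR's likelihood ratio test. The radial glia markers of at least 5 CPM had a median log2 fold change there of -0.33, against 0.04 for all such genes. The radial glia marker *Sox2*, which lies inside another gene of its strand, had no count. The marker genes that passed are named here after their values were seen. In cKO versus ctrl they were *Gad1*, *Nxph1* and *Drd2*, which were higher (0.0578% of all genes were called higher), and *Eomes*, *Neurog2* and *Aldh1a2*, which were lower (0.102% of all). In dKO versus ctrl it was *Hba-a2*, which was higher (0.0482% of all).

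None of the other 9 anoctamins passed the threshold in any comparison. By edgeR's likelihood ratio test cKO versus ctrl held 0 of the 9 at an FDR below 0.05, against 0.160% of all 51912 genes, and 1, *Ano4*, was at an unadjusted p below 0.05, against 4.70% of all. By the same test 0 of the 9 were under either threshold in dKO versus ctrl and in cKO versus dKO, while an unadjusted p below 0.05 was found for 3.32% and 4.16% of all genes. By edgeR's quasi-likelihood test 0 of the 9 were at an FDR below 0.05 in any comparison, against 0.678% of all genes in cKO versus ctrl, 0.218% in dKO versus ctrl and 0.354% in cKO versus dKO. That test put *Ano4* at an unadjusted p below 0.05 in cKO versus ctrl (4.95% of all genes), *Ano1* in dKO versus ctrl (3.85% of all) and both in cKO versus dKO (4.37% of all). DESeq2 gave an adjusted p for 7 of the 9 in cKO versus ctrl, for 2 in dKO versus ctrl and for 8 in cKO versus dKO, and 0 of them were below 0.05, against 0.991%, 0.309% and 0.0312% of all genes that had one. Its unadjusted p was below 0.05 for 0 of the 9 in each comparison, against 1393, 568 and 691 of the 51912 listed genes. The unadjusted DESeq2 p of *Ano4* in cKO versus ctrl was 0.0547. Of the 9, 5 had a mean of at least 5 CPM over the 15 mice, namely *Ano1*, *Ano4*, *Ano6*, *Ano8* and *Ano10*. Their log2 fold changes in cKO versus ctrl were between -0.16 and 0.33, and their 95% intervals ended at 0.61 or below. The log2 fold change of *Ano3* lay above each of these intervals. This is a description, since that value chose the family.

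**Figure D2:**
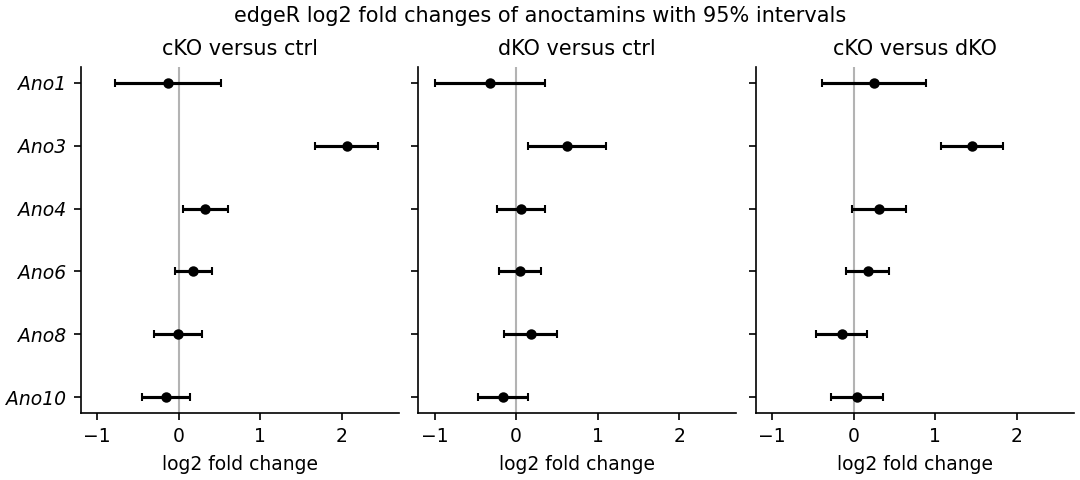
Log2 fold changes from edgeR (x axis) of the 6 anoctamins with a mean of at least 5 CPM (y axis) in the 3 comparisons, with bars for 95% intervals. *Ano3* is at 2.06 in cKO versus ctrl and at 1.45 in cKO versus dKO, right of the intervals of the other 5 members. The values of *Ano3* chose the family, so its place is a description.

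*Ano1* encodes a calcium-activated chloride channel of epithelia and smooth muscle, and had the largest SD relative to its mean of the 6 in each group. It lies at chr7:144588549-144751974. The ctrl mice T3, T4, T5, S1, S3, 2 and 6 were at 28.0, 72.5, 48.9, 69.5, 75.8, 28.6 and 11.7 CPM. The cKO mice 5, 7, S2 and F3 were at 41.8, 25.8, 67.9 and 43.4 CPM. The dKO mice T2, T8, F1 and F7 were at 77.9, 29.6, 30.8 and 24.4 CPM. The groups overlapped throughout, and the 3 mice of litter 2 were all above the 4 mice of litter 1, whatever their genotype. The mean was 47.8 ± 25.6 CPM in ctrl mice (SD, n = 7) and 44.7 ± 17.4 CPM in the 4 cKO mice. The log2 fold change in cKO versus ctrl was -0.13 (95% interval -0.78 to 0.53, edgeR FDR = 1), and a litter term in the fit turned it to 0.41 (unadjusted p = 0.0158, edgeR FDR = 1).

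*Ano2*, whose product is the chloride channel of olfactory sensory neurons, was close to the limit of detection. It had 48 counts in all 15 mice together and at most 10 in any mouse. Its log2 fold change in cKO versus ctrl was -0.34 with a 95% interval from -1.60 to 0.92, so a fall of more than 2-fold was within the error.

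*Ano4* is a neuronal member known for lipid scrambling and close to ANO3 in sequence. In cKO versus ctrl it was the 1 other member with an unadjusted p below 0.05 by edgeR's likelihood ratio test. A two-sided exact permutation test of mean CPM over mice gave unadjusted p = 0.0424 for *Ano4* and 0.0364 for *Ano6*. *Ano4* lies on the minus strand at chr10:88948994-89344762 and spans 396 kb. The ctrl mice T3, T4, T5, S1, S3, 2 and 6 were at 93.4, 114, 127, 96.6, 93.2, 124 and 135 CPM. The cKO mice 5, 7, S2 and F3 were at 171, 137, 112 and 149 CPM. The dKO mice T2, T8, F1 and F7 were at 119, 93.3, 105 and 142 CPM. Of the cKO mice 3 were above every ctrl mouse, and S2 was above its own littermates S1 and S3, which were among the lowest. The log2 fold change in cKO versus ctrl was 0.33 (standard error 0.14, 95% interval 0.05 to 0.61), with an unadjusted p of 0.0197 and an edgeR FDR of 0.823. It was between 0.22 and 0.43 over the alternatives, with edgeR or DESeq2 FDR between 0.153 and 1. Within litters the ratio of cKO to ctrl means was 1.19 in litter 1 and 1.18 in litter 2.

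**Figure D3:**
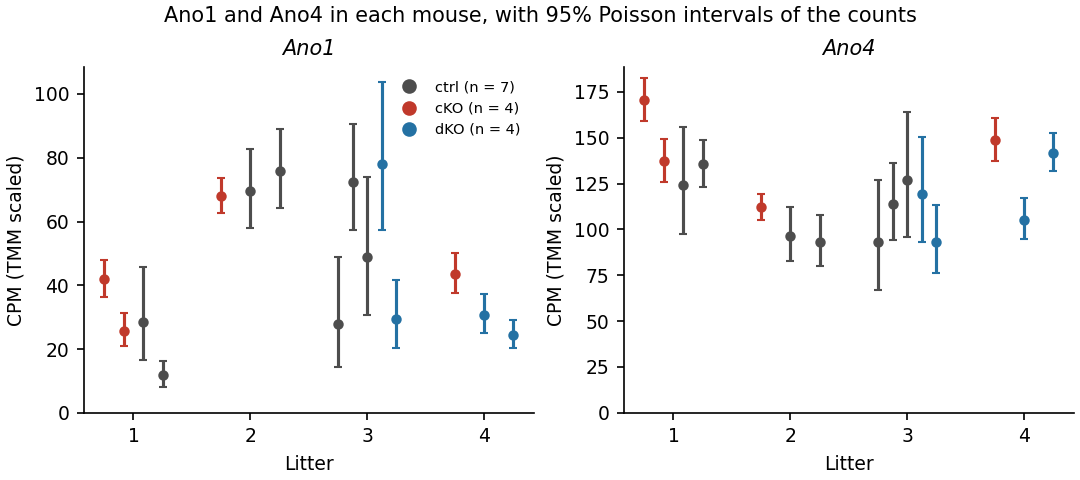
*Ano1* (left) and *Ano4* (right) in CPM (y axes, TMM scaled) in each mouse, by litter (x axes), with points coloured by group and bars for 95% Poisson intervals of the counts. For *Ano1* the 3 mice of litter 2 lie between 67.9 and 75.8 CPM and those of litter 1 between 11.7 and 41.8 CPM, and for *Ano4* the cKO mice lead each of litters 1, 2 and 4.

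*Ano6* encodes the calcium-activated phospholipid scramblase whose loss causes the bleeding disorder Scott syndrome. It lies at chr15:95790843-95974751, and the *Ano6* start shown above is its annotated beginning. Its level was 101 to 149 CPM in ctrl with a median of 127, and it was 157, 146, 138 and 140 CPM in cKO mice 5, 7, S2 and F3. In dKO mice T2, T8, F1 and F7 it was 148, 128, 114 and 139 CPM. The cKO mice lay in the upper end of the ctrl range, with 1 of the 4 above it. The means were 125 ± 15.6 CPM in ctrl mice (SD, n = 7), 146 ± 8.56 CPM in cKO mice (SD, n = 4) and 132 ± 14.2 CPM in dKO mice (SD, n = 4). The log2 fold change in cKO versus ctrl was 0.18 (95% interval -0.05 to 0.41, edgeR FDR = 1), and in dKO versus ctrl it was 0.05 (95% interval -0.21 to 0.31, edgeR FDR = 1). *Ano5*, known for its part in muscle membrane repair, had 93 counts in all. It ranged from 0 to 8.89 CPM in ctrl, from 1.48 to 3.86 CPM in cKO and from 2.41 to 3.32 CPM in dKO.

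*Ano8*, known as a tether between the endoplasmic reticulum and the plasma membrane, is the shortest member at 9.95 kb (chr8:71476019-71485963). Its mean level was 46.9 ± 7.93 CPM in the ctrl mice (SD, n = 7), 48.1 ± 5.47 CPM in the cKO mice (SD, n = 4) and 55.1 ± 8.32 CPM in the dKO mice (SD, n = 4). Its end overlaps *Dda1* on the opposite strand, which the strand of the counts keeps apart. *Ano10*, whose loss causes a recessive cerebellar ataxia, was at 64.6 ± 11.8, 58.8 ± 8.68 and 58.6 ± 5.99 CPM in the same groups. The groups overlapped for both genes. In cKO versus ctrl the log2 fold change was -0.0063 for *Ano8* (95% interval -0.30 to 0.29, edgeR FDR = 1) and -0.16 for *Ano10* (95% interval -0.45 to 0.14, edgeR FDR = 1).

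**Figure D4:**
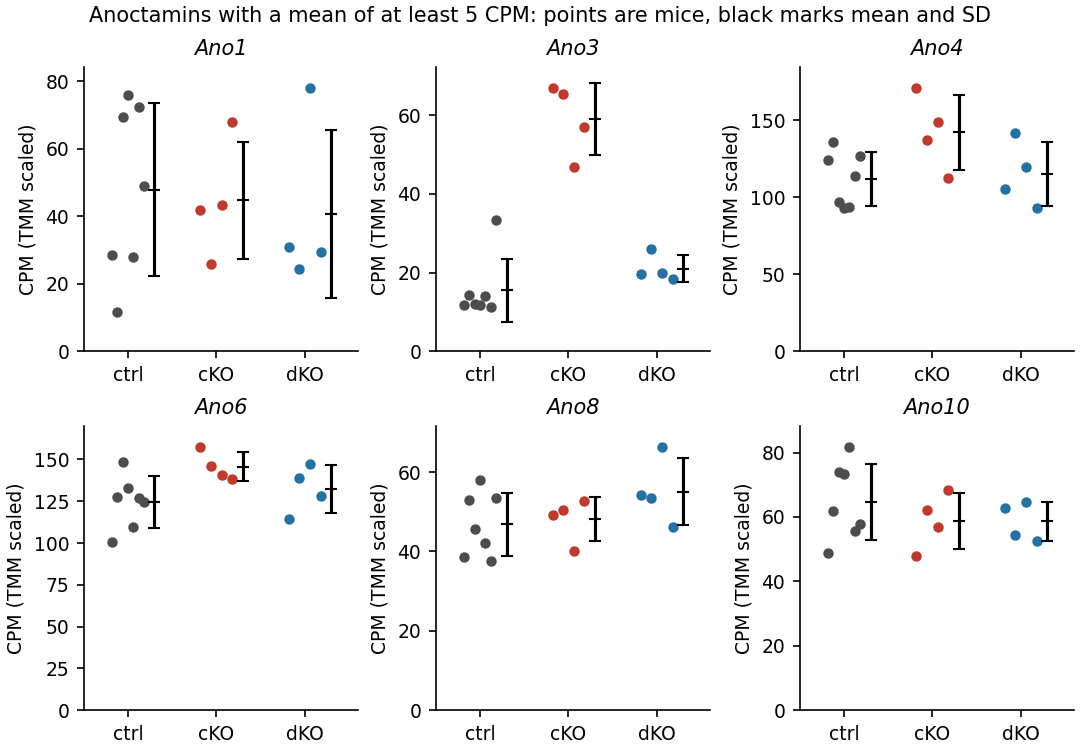
Levels in CPM (y axes, TMM scaled) of the 6 anoctamins with a mean of at least 5 CPM in ctrl, cKO and dKO mice (x axes), with points for mice and black marks for the mean and SD. In the panel of *Ano3* the cKO mice stand clear of the other groups, and in the other 5 panels the groups overlap.

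*Ano7*, best known from prostate epithelium, and *Ano9* were at or under what the libraries could show. *Ano7* had 11 counts over 7 mice. *Ano9* had 1 count, in the dKO mouse F7. With no count of *Ano9* in ctrl or cKO, 3 counts over the whole group would be 0.318 CPM in ctrl and 0.129 CPM in cKO.

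The order of the members depended on the scale used to compare genes. Per kb of exon, *Ano4* was first in ctrl with 15.4 ± 2.42 CPM per kb, followed by *Ano10* with 10.9 ± 2.00, *Ano6* with 10.1 ± 1.27, *Ano1* with 7.66 ± 4.10, *Ano8* with 6.84 ± 1.16 and *Ano3* with 2.14 ± 1.10 (SD, n = 7). On this scale *Ano3* was the lowest of the 6 in ctrl and in dKO, and the fourth in cKO with 8.18 ± 1.28 CPM per kb (SD, n = 4). None of the 5 steps between neighbours in ctrl passed a two-sided exact sign-flip test over mice after adjustment. The step from *Ano8* to *Ano3* had the same direction in 7 of 7 mice (exact p = 0.0156, the smallest that 7 mice allow, adjusted over the 5 steps 0.0781). With 4 mice the smallest exact p is 0.125, so no step could pass in cKO or dKO. The order in each group was set by the means of the same mice, so these p-values are not independent evidence of it. Steps that hold *Ano3* also rest on the values that chose the family.

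Per kb of gene span, introns included, *Ano8* was first in every group, with 4.71 ± 0.797 CPM per kb in ctrl (SD, n = 7), and exons are 68.8% of its span. *Ano3* was then sixth in every group, with 0.0524 ± 0.0269 CPM per kb in ctrl (SD, n = 7) and 0.200 ± 0.0312 in cKO (SD, n = 4). In ctrl 4 of the 5 steps on this scale had an adjusted exact sign-flip p of at most 0.0391. *Ano1* and *Ano4* were not told apart (adjusted exact p = 0.766). Here too the same mice set the order, and the step to *Ano3* rests on values that chose the family. The steps are therefore a description. Since the counts hold intronic reads, neither scale separates spliced from unspliced RNA. Of the summed CPM per kb of exon of all 10 members, *Ano3* held 3.93% ± 1.72 in ctrl (SD, n = 7), 12.7% ± 1.74 in cKO (SD, n = 4) and 5.36% ± 0.928 in dKO (SD, n = 4). The sum of the other 9 was 51.9 ± 4.79, 56.2 ± 2.40 and 52.0 ± 8.21 CPM per kb.

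Long genes had a slightly higher median fold change in cKO than other genes, and *Ano3*, *Ano4* and *Ano6* are among them. Of the 10855 genes with a mean of at least 5 CPM, the 1085 longest, at 178 kb or more, had a median log2 fold change of 0.11 in cKO versus ctrl, with quartiles at -0.061 and 0.28, against 0.04 for all 10855. In cKO versus dKO the median was 0.15, with quartiles at 0.03 and 0.25. The values of *Ano6*, 0.18 and 0.17, lay between these quartiles, and those of *Ano4*, 0.33 and 0.31, lay just above them. *Ano3*, at 2.06 and 1.45, lay far above them, which is a description, since its high cKO values chose the family.

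**Figure D5:**
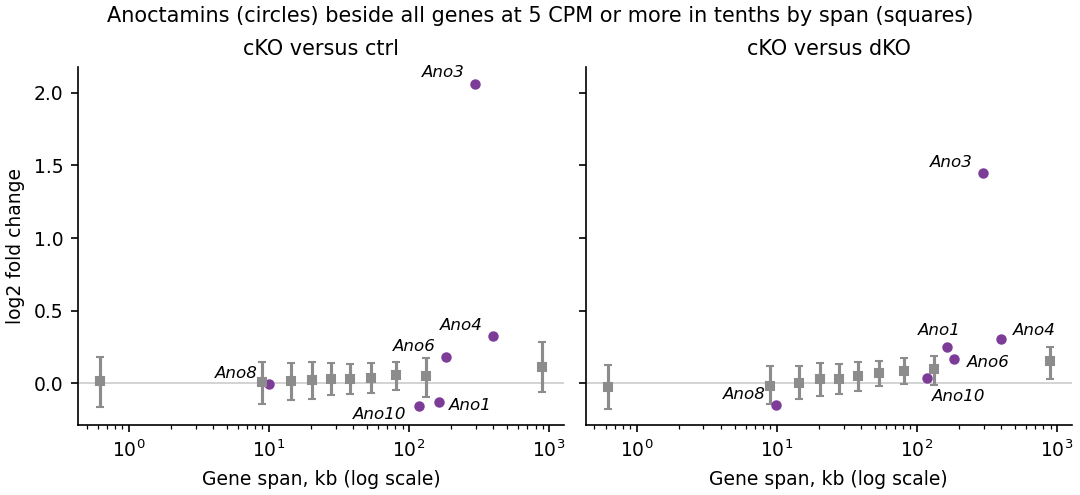
Log2 fold change (y axis) against gene span in kb (x axis, log scale) for the 6 anoctamins (circles) and for all genes with a mean of at least 5 CPM in 10 classes of equal size by span (squares with bars, median and quartiles). *Ano3* stands at 2.06 and 1.45, while the median of the longest class is 0.11 in cKO versus ctrl (left) and 0.15 in cKO versus dKO (right).

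No neighbour of *Ano3* on the chromosome passed the threshold. Of 64 genes lying within 1 Mb, 44 had no count and 4 had a mean of at least 5 CPM. None of the 64 was at an FDR below 0.05 in any comparison by edgeR's likelihood ratio test. Of all genes 0.160% were in cKO versus ctrl, 0.0501% in dKO versus ctrl and 0.0520% in cKO versus dKO. At these shares 0 of 64 does not set the neighbours apart from other genes. None of the 4 was at an unadjusted p below 0.05 by that test, against 4.70%, 3.32% and 4.16% of all genes. In cKO versus ctrl the log2 fold changes of *Lin7c*, *Lgr4*, *Ccdc34* and *Gm13936* were 0.09, 0.33, 0.05 and 0.12. *Lgr4*, a receptor that strengthens Wnt signalling, was at 19.3 ± 4.70 CPM in ctrl mice (SD, n = 7), 25.1 ± 3.03 CPM in cKO mice (SD, n = 4) and 21.5 ± 6.68 CPM in dKO mice (SD, n = 4).

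Profiles over the 15 mice were compared by the root mean square difference of standardized log2 CPM, which is 0 for the same shape. The 5 genes nearest to *Ano3* among 10854 were *Pvt1* (0.459), *Enox1* (0.545), *Dscaml1* (0.643), *Akap6* (0.660) and *Mapk8* (0.669). These are descriptions, since all genes were counted in the same libraries, which differ in depth. The first 4 of these 5 genes are among the 1085 longest genes. The non-coding RNA gene *Pvt1* was at 23.3 to 38.6 CPM in ctrl, 58.9 to 85.0 CPM in cKO and 31.5 to 45.3 CPM in dKO. Its level in T5 was 37.8 CPM, within the range of the other ctrl mice, unlike that of *Ano3*. *Enox1*, an oxidase of the cell surface, was at 929 to 1100 CPM in ctrl and 1216 to 1477 CPM in cKO, so a like shape went with a smaller ratio. Of the other anoctamins, *Ano4* ranked 125 and *Ano6* 493, while *Ano8*, *Ano1* and *Ano10* ranked 4191, 7175 and 9742.

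Relatives of the anoctamins and other proteins with like activities were counted from fixed lists. Of the 11 TMC and TMEM63 genes, which share ancestry with the anoctamins, 3 had a mean of at least 5 CPM and 0 were at an FDR below 0.05 in any comparison by edgeR's likelihood ratio test, against 0.160% of all genes in cKO versus ctrl. An unadjusted p below 0.05 was found there for 2 of the 11, against 4.70% of all genes, namely *Tmc3* with 15 counts over the 15 mice and *Tmc6* with 11. *Tmc3* and *Tmc6* were lower in cKO, at -1.90 and -2.04. The median log2 fold change of the 3 genes of at least 5 CPM in cKO versus ctrl was 0.15, against 0.04 for all genes of at least 5 CPM. *Tmem63c* and *Tmem63b*, which encode stretch-activated channels, were at 0.25 (edgeR FDR = 1) and 0.15 (edgeR FDR = 1).

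Of 13 other scramblases of the XKR, PLSCR and TMEM41B groups, 7 had a mean of at least 5 CPM. By edgeR's likelihood ratio test 1 was higher in cKO versus ctrl, where 0.0578% of all genes were. In dKO versus ctrl and cKO versus dKO 0 passed, against 0.0501% and 0.0520% of all. In these 2 comparisons 0 and 1 were at an unadjusted p below 0.05, against 3.32% and 4.16% of all genes. In cKO versus ctrl 2 were, against 4.70% of all, namely *Xkr4* and *Xkr8*. *Xkr8*, with 68 counts over the 15 mice, was lower in cKO (-1.42, unadjusted p = 0.0140). The median of the 7 in cKO versus ctrl was 0.14. The gene that rose was *Xkr4*, whose product scrambles lipids once cleaved by caspases. The level was 861 ± 184 CPM in cKO mice (SD, n = 4), 640 ± 166 CPM in dKO mice (SD, n = 4) and 559 ± 72.1 CPM in ctrl mice (SD, n = 7), and its log2 fold change in cKO versus ctrl was 0.60 (standard error 0.14, edgeR FDR = 0.0204). This call was lost in 12 of 24 alternatives, among them the fits without cKO mice 5 (FDR = 0.375), 7 (FDR = 0.112) or F3 (FDR = 0.134), without ctrl mice S3 (FDR = 0.0652), T4 (FDR = 0.0856) or T5 (FDR = 0.0507), and with litter as a covariate (0.36, FDR = 0.585). Of 24 genes of other anion channels, 14 had a mean of at least 5 CPM and 0 passed in any comparison by edgeR's likelihood ratio test. Of all genes 0.160% passed in cKO versus ctrl, 0.0501% in dKO versus ctrl and 0.0520% in cKO versus dKO. For 4 of the 24 the unadjusted p in cKO versus ctrl was below 0.05, against 4.70% of all genes. They were *Lrrc8c*, *Clcn7*, *Ttyh1* and *Ttyh2*. In dKO versus ctrl 2 and in cKO versus dKO 1 were at an unadjusted p below 0.05, against 3.32% and 4.16% of all genes. The median of the 14 genes of at least 5 CPM in cKO versus ctrl was 0.0079. *Ttyh1*, a membrane protein of neural progenitors, was at -0.59 (edgeR FDR = 0.0942) and *Ttyh2* at -0.42 (edgeR FDR = 0.852).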

How the data were processed

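UMI RNA-seq was made by ClickSeq from E15.5 cortex. Per the study's methods and the submitters' processing notes, the authors trimmed reads with cutadapt 1.13, aligned them to mm10 with STAR 2.5.2a, removed PCR copies with UMI-tools 0.5.3 and counted reads with HTSeq 0.6.1p1. The counts the authors deposited are whole deduplicated reads per gene and library, not normalized. The release of their annotation is not given in the sources used here, and GENCODE M21 symbols matched 51719 of 51912 identifiers. The 5 summary lines of each file were left out. The authors' own comparisons were not used.

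Each pair of groups was fitted on its own mice, over all listed genes and without a filter, with edgeR 4.0.16 in R 4.3.3 (TMM, estimateDisp, glmFit and glmLRT, no covariate, Benjamini-Hochberg FDR). Standard errors come from the Fisher information of the fit, and 95% intervals are 1.96 standard errors wide on each side. Levels are CPM with TMM over the 15 mice. Profiles used log2 CPM with a prior count of 2. Replicates are mice, and no mouse number is shared between groups. No 50 bases in a row were shared between the transcripts of any of the 45 pairs of members.

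The members and gene lists were chosen with earlier results of these data known. Genes named are all members, genes that overlap them, neighbours of *Ano3* within 1 Mb at 5 CPM or more, *Knl1* and *Trp53*. The 5 genes with the profile nearest to *Ano3* are named too. Of the related lists, called members are named, or the 2 with the largest change in cKO versus ctrl at 5 CPM or more. Members of these lists at an unadjusted p below 0.05 in cKO versus ctrl are also named. Alternatives were edgeR's quasi-likelihood test, DESeq2 1.42.0, RLE or total-count scaling, filterByExpr, all groups in 1 fit, batch, litter or sex as a covariate, wild-type ctrl only, 1 batch only, the S2 libraries singly and each mouse left out. Plots used matplotlib 3.10.9 under Python 3.11.15.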

Additional observations from a re-analysis of the deposited data

Results flagged for a closer look

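Among 18 sets of values, 1 for each of the 6 anoctamins of at least 5 CPM in each group, 2 held a mouse far from the others by Dixon's criterion, which chance meets in about 1 of 20. *Ano3* in ctrl mouse T5 was at 33.3 CPM, with a gap of 0.866 of the range of the 7 ctrl mice. It rests on 15 counts in one of the shallowest libraries (417440 counts). *Ano1* in dKO mouse T2 was at 77.9 CPM, with a gap of 0.881 of the range of the 4 dKO mice. Its ctrl littermate T4 was at 72.5 CPM.

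*Ano3* is also given here for the difference between mice lacking *Knl1* with and without *Trp53*. In cKO versus dKO its log2 fold change was 1.45. Its edgeR FDR of 1.5e-09 reuses the cKO mice that chose *Ano3*, so it is not independent evidence, and the call was lost with batch as a covariate and in batch 3 alone.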

How the results depend on the processing

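*Ano3* kept its direction in all 3 comparisons under every alternative run, and its side of the threshold in all but 2 settings, both for cKO versus dKO: 1.11 with batch as a covariate (edgeR FDR = 0.0935) and 1.12 in batch 3 alone (edgeR FDR = 1). Batch 3 holds 1 cKO mouse. DESeq2 gave no adjusted p for *Ano3* in dKO versus ctrl. Without 1 mouse its log2 fold change was 2.00 to 2.23 in cKO versus ctrl, 0.47 (without F7) to 0.79 (without T5) in dKO versus ctrl and 1.37 to 1.63 in cKO versus dKO. The count of the other 9 anoctamins at an FDR below 0.05 was 0 under every alternative, over all 9 but for DESeq2, which gave an adjusted p for 7 of them in cKO versus ctrl, for 2 in dKO versus ctrl and for 8 in cKO versus dKO, and filterByExpr, which kept 5, 5 and 6 of them. Among the members other than *Ano7* and *Ano9*, signs turned only for log2 fold changes that never passed. In cKO versus ctrl they were *Ano1* (-0.13, 0.057 with batch, 0.41 with litter, 0.053 with wild-type ctrl, 0.23 in batch 1, -0.41 to 0.084 without 1 mouse), *Ano2* (-0.34, 0.033 with litter, 0.0069 with wild-type ctrl, 0.94 in batch 1, -0.77 to 0.0040 without 1 mouse), *Ano5* (0.26, -0.0011 by DESeq2, -0.076 to 0.74 without 1 mouse) and *Ano8* (-0.0063, 0.0064 in 1 fit of all groups, 0.015 with litter, 0.0056 with library S2 alone, -0.057 to 0.067 without 1 mouse). In dKO versus ctrl they were *Ano2* (0.11, -0.69 with batch, -0.70 in batch 3, -0.43 to 0.57 without 1 mouse) and *Ano4* (0.056, -0.089 with litter, -0.081 to 0.13 without 1 mouse). In cKO versus dKO they were *Ano1* (0.25, -0.031 to 0.69 without 1 mouse), *Ano2* (-0.36, -0.84 to 0.13 without 1 mouse), *Ano5* (-0.31, 0.45 with batch, 0.47 with litter, 0.45 in batch 3, -0.65 to -0.12 without 1 mouse) and *Ano10* (0.038, -0.011 by DESeq2 and with RLE, -0.052 with total counts, -0.019 after filterByExpr, -0.015 with batch and in batch 3, -0.020 with litter, -0.075 to 0.13 without 1 mouse). The causes were not tested. Mouse numbers are not shared between groups, so the mice were blocked by litter and not by number.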
